A study of Mus musculus with 12 samples.

Results

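Ribosomal proteins of the cytosol were examined as a gene family in T cells from mouse spleen after co-culture with partner cells called Res. The family was taken by symbol: every row whose symbol is Rpl or Rps, a number and at most 1 of the letters a, l or x, and in addition Rplp0, Rplp1, Rplp2 and Rpsa, with pseudogene rows (-ps) left out. This gave 83 of the 53762 rows of the count table, 32 for the small subunit and 51 for the large subunit with its stalk. The low count filter (at least 10 counts in enough libraries and 15 in total) kept 16945 genes, among them 80 members, 32 of the small and 48 of the large subunit. The 3 members that did not pass were Rpl10l with 0 counts in all 12 libraries, Rpl32l with 6 and Rpl3l with 16.

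The 4 groups, of 3 libraries each, were T cells kept with Res_shFabp7 cells for 48 h, with Res_ctrl cells for 48 h, with Res_shFabp7 cells for 24 h and with Res_ctrl cells for 24 h. Res_shFabp7 cells carry a short hairpin RNA against Fabp7, a fatty acid binding protein gene, and Res_ctrl cells are their controls. The series title concerns cancer cells, and its design text asks which T cell genes differ between the 2 partners. All cells were grown in RPMI-1640 with heat-inactivated serum. Strain, sex and age of the mice, the origin of the Res cells, the way T cells were parted from them and whether libraries came from separate cultures or animals are not given in the sources used here. The p-values therefore cover the spread between these libraries alone, and that spread may be technical.

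Each ribosome joins a small subunit, which holds the mRNA, to a large subunit, which forms peptide bonds, and each cytosolic ribosomal protein is needed in about the same amount as the others. The mRNAs of these proteins are known for a terminal oligopyrimidine (TOP) start, a C followed by an unbroken run of C and T, through which mTORC1 signalling and the repressor LARP1 set their translation. T cells are known to build ribosomes rapidly once activated, with MYC driving the nucleolar factors that assemble them.

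The start sites of members that differed most between the partners, and of a stalk member near 0, are shown because the TOP run is the sequence feature best known for this family. Each window holds the 15 bases before and the 15 bases after the RefSeq transcription start on the gene's strand, 5′ to 3′, from build GRCm38.p6, and capitals mark the longest run of C and T (the first of them where runs tie, as in Rps7). Where RefSeq lists several starts, the one with the longest such run was taken. Rps27, Rps18, Rps15a and Rps7 were lower with the shFabp7 partner at 48 h, Rps2 was higher, Rps27l and Rpl35 were higher at 24 h, and Rplp2 did not pass the test at either time.
Rps27: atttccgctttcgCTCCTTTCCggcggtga
Rps18: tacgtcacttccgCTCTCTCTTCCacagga
Rps15a: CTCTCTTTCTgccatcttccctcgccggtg
Rps7: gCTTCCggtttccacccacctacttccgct
Rps2: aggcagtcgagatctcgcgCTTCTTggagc
Rps27l: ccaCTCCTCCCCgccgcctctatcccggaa
Rpl35: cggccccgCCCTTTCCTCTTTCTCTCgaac
Rplp2: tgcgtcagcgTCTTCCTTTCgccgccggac
The windows lie at chr3:90213634-90213663 (minus strand), chr17:33955651-33955680 (minus), chr7:118116133-118116162 (minus), chr12:28635939-28635968 (minus), chr17:24720048-24720077 (plus), chr9:66946071-66946100 (plus), chr2:39005117-39005146 (minus) and chr7:141447636-141447665 (plus), in the order of the lines.

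A start window was found for 61 of the 83 members. A C at the annotated start followed by at least 4 pyrimidines was present in 14 of them (23%), against 3.01% of the 27025 genes with a window. A C followed by at least 5 pyrimidines within 15 bases of the start was present in 36 members (59%), against 25.5% of all genes. In the 300 bases around the start, CCGGAAG, the core bound by ETS family factors, was found on either strand in 25 members (41%), against 9.93% of all genes. The GC box GGGCGG was found in 36 members (59%), against 38.2%, the E-box CACGTG in 6 (9.84%), against 8.09%, and the YY1 core AAGATGGC in 5 (8.2%), against 3.19%. These are matches of letters, not measured sites. Each printed window shows a run of C and T because its longest run was marked, so the windows cannot tell lower members from others. The marked run ends before the annotated start in Rps15a, Rps7 and Rps27l and begins after it in Rps2. In these windows it is therefore not a TOP run at that start.

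Library totals were 32 to 41 M counts. Fabp7 had 0 counts in 9 libraries and 3, 1 and 1 counts in the control partner's libraries at 48 h, which says nothing of the knockdown in the Res cells. T cell markers were abundant (Cd3e averaged 337 CPM), whereas B cell markers summed to 12.7 to 25.3 CPM and neutrophil markers to 3.28 to 12.1 CPM per library. The 321 pseudogene rows of the family held 0.0833 to 0.101% of counts, so few reads of the family were counted there. For single members they could be large beside the gene. They held 1841 counts against 2685 for Rps10, 47846 against 111276 for Rpl34 and 48079 against 267033 for Rpl15. Whether reads shared with such copies were dropped was not tested.

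The level of the family as a whole was lowest after 48 h beside the shFabp7 partner. Members took 6.82, 6.93 and 6.76% of all counts with the shFabp7 partner at 48 h, against 7.53, 8.33 and 8.35% with the control partner. At 24 h they took 7.88, 8.57 and 8.24% with the shFabp7 partner, against 8.05, 8.45 and 7.37% with the control partner. The 3 shFabp7 libraries at 48 h lay close together and below each of the other 9, while the 2 partners overlapped at 24 h. Group means were 6.83 ± 0.0860%, 8.07 ± 0.467%, 8.23 ± 0.345% and 7.95 ± 0.546% (SD, n = 3, in the order shFabp7 and control at 48 h, shFabp7 and control at 24 h). The difference between the partners, shFabp7 minus control, was -1.24 percentage points at 48 h and 0.278 at 24 h. The 24 h value turned to -0.0156 without control replicate 3 and was 0.525 without control replicate 2. With 3 against 3 libraries an exact permutation test cannot reach 0.05, so no p is given for these shares. In bulk samples, fewer cells of a type and less RNA per cell cannot be told apart.

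**Figure D1:**
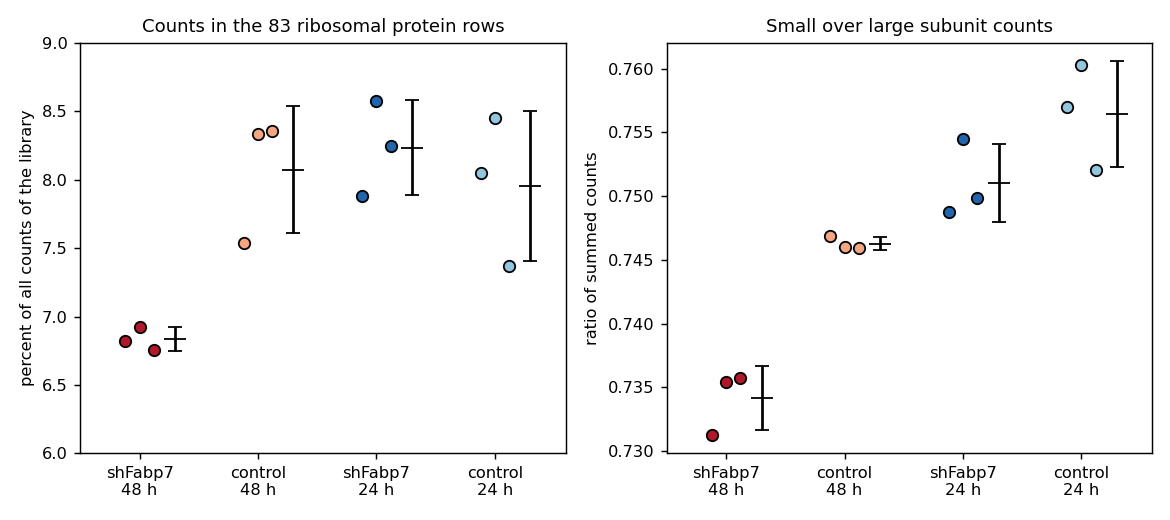
Left, percent of all counts in the 83 cytosolic ribosomal protein genes, and right, small subunit counts over large subunit counts, by group, with 1 point per library and the group mean ± SD (n = 3); the left axis does not start at 0. The 3 shFabp7 libraries at 48 h, at 6.76 to 6.93%, sit below all others, and they also have the lowest small to large subunit ratios.

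The 2 subunits moved together, but not to the same extent. Small subunit counts over large subunit counts were 0.734 ± 0.00249 with the shFabp7 partner and 0.746 ± 0.000535 with the control partner at 48 h, and the libraries did not overlap. At 24 h the ratio was 0.751 ± 0.00304 with the shFabp7 partner and 0.756 ± 0.00415 with the control partner, with overlap (SD, n = 3 each).

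Libraries within a group differed in the whole family at once. Replicate 1 of the control partner at 48 h was the lowest of its group for 69 of the 80 tested members, and replicate 3 of the control partner at 24 h for 66. Replicate 2 was the highest of the control partner at 24 h for 72 members, of the shFabp7 partner at 24 h for 61 and of the shFabp7 partner at 48 h for 69. Members of 1 library therefore share its position and are not independent of each other. The counts of lowest and highest members were not made over all tested genes, so they have no background. Over all genes with enough counts, control replicate 1 at 48 h also stood apart. Its chi-square per degree of freedom was 13.7 against replicate 2 and 14.2 against replicate 3, with 5.41 between those. For the control partner at 24 h it was 13.9 between replicates 2 and 3, and 7.82 and 9.19 for the other pairs. The labels give no batch, so no value within batches could be had.

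**Figure D2:**
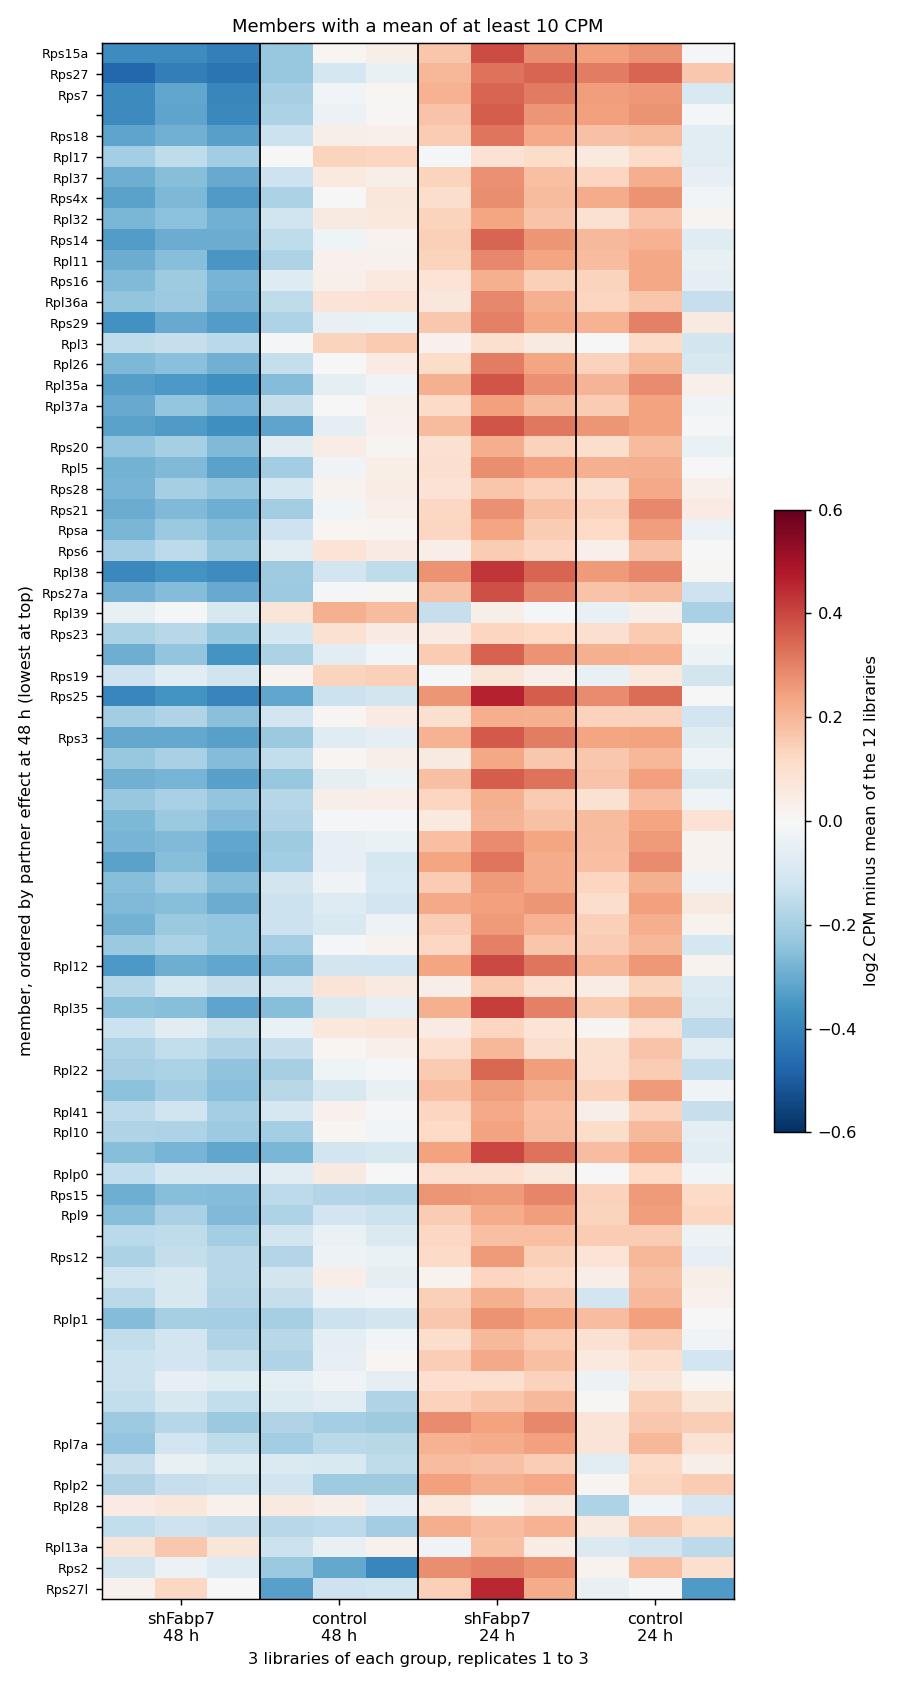
Level of the 75 members (labelled where named in the text) with a mean of at least 10 CPM in each of the 12 libraries, as log2 CPM minus the member's mean over all libraries, with libraries ordered shFabp7 and control at 48 h, shFabp7 and control at 24 h. The shFabp7 columns at 48 h are low in nearly every row, and whole columns differ within groups, as in replicate 1 of the control partner at 48 h.

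At 48 h, more than 1 in 2 members were lower with the shFabp7 partner, by small amounts. In edgeR's quasi-likelihood test with Benjamini-Hochberg adjustment over all tested genes, 45 of 80 members fell and 2 rose with the shFabp7 partner. Of all tested genes, 11.6% were called lower, 19.9% higher and 31.6% in either direction. The median log2 fold change (shFabp7 over control) of members was -0.17, against 0.01 for all tested genes, and the members ranged from -0.33 to 0.56. Among the 2440 other genes with a mean of at least 100 CPM, the median was 0.13, 10.6% were called lower and 47.6% higher. The fold change was negative in 70 of 80 members. In 58 of the 80 the libraries of the 2 partners did not overlap, a larger share than the 44% of all genes. In 50 members, every library of the shFabp7 partner at 48 h was below each of the other 9 libraries. This was not counted over all tested genes, so the number has no background to be read against. Calls of higher genes made up 63.2% of all calls with TMM scaling, 39.9% with upper-quartile scaling and 40.5% with library totals, and 45, 65 and 64 members fell under these. Of all genes, 11.6, 18.9 and 18.7% were called lower in the same fits. Members lay 0.19 below the median of all tested genes under all 3 (-0.187 each). A change of scaling shifts every gene about alike, so this gap could hardly differ between the 3. The fall counted 19 of 32 small subunit and 26 of 48 large subunit members.

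The 48 h count rested partly on which libraries entered. It was lowest at 29, without shFabp7 replicate 3 or control replicate 3 at 48 h, where 8.37 and 8.76% of all genes were called lower. It was highest at 57, without control replicate 2 or 3 at 24 h, where these shares were 13.6 and 13.9%. Without control replicate 1 at 48 h and control replicate 3 at 24 h, which had the low family shares, 61 members fell and 2 rose. Of all genes, 12.3% were called lower and 21.4% higher in that fit. The same 26 members fell whichever library was left out and under every other setting tried, and they are spread over both subunits, among them Rpsa, Rps4x, Rps6, Rps7, Rps14, Rps15a, Rps16, Rps18, Rps19, Rps20, Rps21, Rps23, Rps27, Rps28, Rps29, Rpl3, Rpl11, Rpl17, Rpl26, Rpl32, Rpl35a, Rpl37, Rpl37a, Rpl38 and Rpl39.

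The largest falls at 48 h were in the small subunit. Rps15a, a core protein of the small subunit, had 586, 587 and 574 CPM at 48 h with the shFabp7 partner, against 651, 767 and 781 CPM with the control partner. It was lower in all 3 libraries of the shFabp7 partner, with no overlap (log2 fold change -0.33 ± 0.07, adjusted p = 0.000872). Rps27, a zinc finger protein of the small subunit, had 526, 547 and 539 CPM with the shFabp7 partner, against 623, 678 and 708 CPM with the control partner. These groups did not overlap either (-0.32 ± 0.06, adjusted p = 4.32e-05). Rps7, which is needed for rRNA maturation in the small subunit, had 731, 766 and 726 CPM with the shFabp7 partner, against 828, 941 and 958 CPM with the control partner. Its log2 fold change was -0.29 ± 0.07 (adjusted p = 0.00325), and the spread was wider in the control libraries, among which replicate 1 was lowest.

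The head of the small subunit, which turns during translocation, fell in part. Of its 10 listed members, 6 fell, none rose (nor at an unadjusted p under 0.05 or in DESeq2) and the median was -0.20. This is close to the small subunit as a whole, where 19 of 32 members fell, 2 rose and the median was -0.20. Rps18, in the head where it faces the large subunit, had 1036, 1056 and 1028 CPM with the shFabp7 partner, against 1179, 1322 and 1318 CPM with the control partner, and the groups did not overlap (-0.29 ± 0.06, adjusted p = 0.000383). Rps29, a small zinc-binding head protein, had 633, 661 and 646 CPM with the shFabp7 partner, against 717, 791 and 793 CPM with the control partner (-0.25 ± 0.06, adjusted p = 0.00117). Rps25, also of the head, fell by 0.20 ± 0.07 (adjusted p = 0.0285), but each of 5 libraries at 48 h ended this call when left out: shFabp7 replicates 1, 2 and 3 (adjusted p = 0.0796, 0.0574 and 0.0885) and control replicates 2 and 3 (0.112 and 0.133). Rps10, Rps12 and Rps15, further head proteins, had log2 fold changes of -0.10 ± 0.14, -0.08 ± 0.06 and -0.10 ± 0.05 and did not pass (adjusted p = 0.62, 0.291 and 0.138).

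Around the mRNA channel, members differed from each other. Rps2, at the mRNA entry, was the member whose rise at 48 h held without any library and under every setting. It had 1424, 1500 and 1457 CPM at 48 h with the shFabp7 partner, against 1319, 1241 and 1172 CPM with the control partner. All 3 shFabp7 libraries were above the control ones (0.23 ± 0.05, adjusted p = 0.00109). Rps3, which lies beside Rps2 at the entry and binds the incoming mRNA, went the other way, with 1311, 1314 and 1296 CPM with the shFabp7 partner, against 1392, 1543 and 1561 CPM with the control partner (-0.20 ± 0.07, adjusted p = 0.0214). The call of Rps3 ended without any of 5 libraries at 48 h, shFabp7 replicates 1, 2 and 3 (adjusted p = 0.0566, 0.0566 and 0.0729) and control replicates 2 and 3 (0.0887 and 0.097). Of the 5 listed members at the mRNA exit, 3 fell, Rpsa, Rps14 and Rps28, and none rose. In the small subunit as a whole 19 of 32 fell and 2 rose, a similar share of falls. Rpsa, also known as the laminin receptor, had 2514, 2608 and 2543 CPM with the shFabp7 partner, against 2786, 3062 and 3079 CPM with the control partner, without overlap (-0.22 ± 0.06, adjusted p = 0.00517). Rps14, known in humans for its loss in a myelodysplastic syndrome, had 735, 755 and 755 CPM with the shFabp7 partner, against 834, 912 and 941 CPM with the control partner (-0.26 ± 0.06, adjusted p = 0.00216). Rps6, the substrate of the S6 kinases downstream of mTORC1, had 1010, 1045 and 993 CPM with the shFabp7 partner, against 1113, 1232 and 1204 CPM with the control partner, and the groups did not overlap (-0.22 ± 0.06, adjusted p = 0.00224).

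In the large subunit, most members around the exit of the nascent chain tunnel fell. Of the 7 listed, 6 fell and none rose, with a median of -0.20. Without single libraries, 3 to 7 fell. Among all 48 tested large subunit members 26 fell and 0 rose, with a median of -0.16, and the difference was not tested. Rpl17, at the tunnel exit, had 1032, 1070 and 1026 CPM with the shFabp7 partner, against 1190, 1301 and 1298 CPM with the control partner. These groups did not overlap (-0.28 ± 0.05, adjusted p = 0.000168). Rpl39, the small protein that lines the tunnel, had 379, 388 and 366 CPM with the shFabp7 partner, against 411, 453 and 447 CPM with the control partner, and the groups did not overlap (-0.21 ± 0.06, adjusted p = 0.00486). Rpl35, also at the exit, had log2 fold change -0.14 ± 0.07 and did not pass (adjusted p = 0.112).

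Other large subunit members that fell lie in several places. Rpl38, known in mice for its part in the translation of Hox mRNAs, had 308, 314 and 311 CPM with the shFabp7 partner, against 347, 372 and 363 CPM with the control partner (-0.21 ± 0.06, adjusted p = 0.005). Every shFabp7 library was below every control library. Rpl36a, a large subunit protein near the exit site for tRNA, fell by 0.26 ± 0.07 (adjusted p = 0.00928), and the call ended without control replicate 2 or 3 at 48 h (adjusted p = 0.057 and 0.0624).

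Rpl5 and Rpl11, which bind 5S rRNA together and, when free of the ribosome, the p53 regulator MDM2, both fell. Rpl11 had 758, 781 and 730 CPM at 48 h with the shFabp7 partner, against 820, 947 and 947 CPM with the control partner (-0.26 ± 0.06, adjusted p = 0.00246). Rpl5 had 1361, 1379 and 1326 CPM with the shFabp7 partner, against 1433, 1633 and 1704 CPM with the control partner (-0.23 ± 0.06, adjusted p = 0.00601), and its call ended without control replicate 3 at 48 h (adjusted p = 0.0541). The groups did not overlap in either gene, and control replicate 1 was the closest to the shFabp7 libraries in both.

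The stalk, which draws translation factors to the large subunit, did not pass in any of its 3 members in edgeR or DESeq2, and 1 was lower at an unadjusted p under 0.05. This depended on the scaling: with upper-quartile scaling or library totals, Rplp0 and Rplp1 fell (-0.20 and -0.16 under each), and up to 1 stalk member fell when a library was left out. Rplp0, its base, had 1161, 1195 and 1201 CPM at 48 h with the shFabp7 partner, against 1227, 1334 and 1283 CPM with the control partner (-0.11 ± 0.05, adjusted p = 0.101). Rplp1 and Rplp2, its acidic arms, had log2 fold changes of -0.08 ± 0.06 and 0.03 ± 0.05 (adjusted p = 0.335 and 0.683). The libraries of the 2 partners overlapped in Rplp2 and not in the other 2. Rpl10, which helps shape the catalytic region, and Rpl22, which mouse αβ T cells need for their development, had log2 fold changes of -0.13 ± 0.06 each and did not pass at 48 h (adjusted p = 0.1 and 0.118). Rpl41, a very short basic peptide of the large subunit, had -0.13 ± 0.06 (adjusted p = 0.0857), and Rpl13a, which has a translation silencing role in human monocytes, had 0.15 ± 0.06 (adjusted p = 0.0684).

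**Figure D3:**
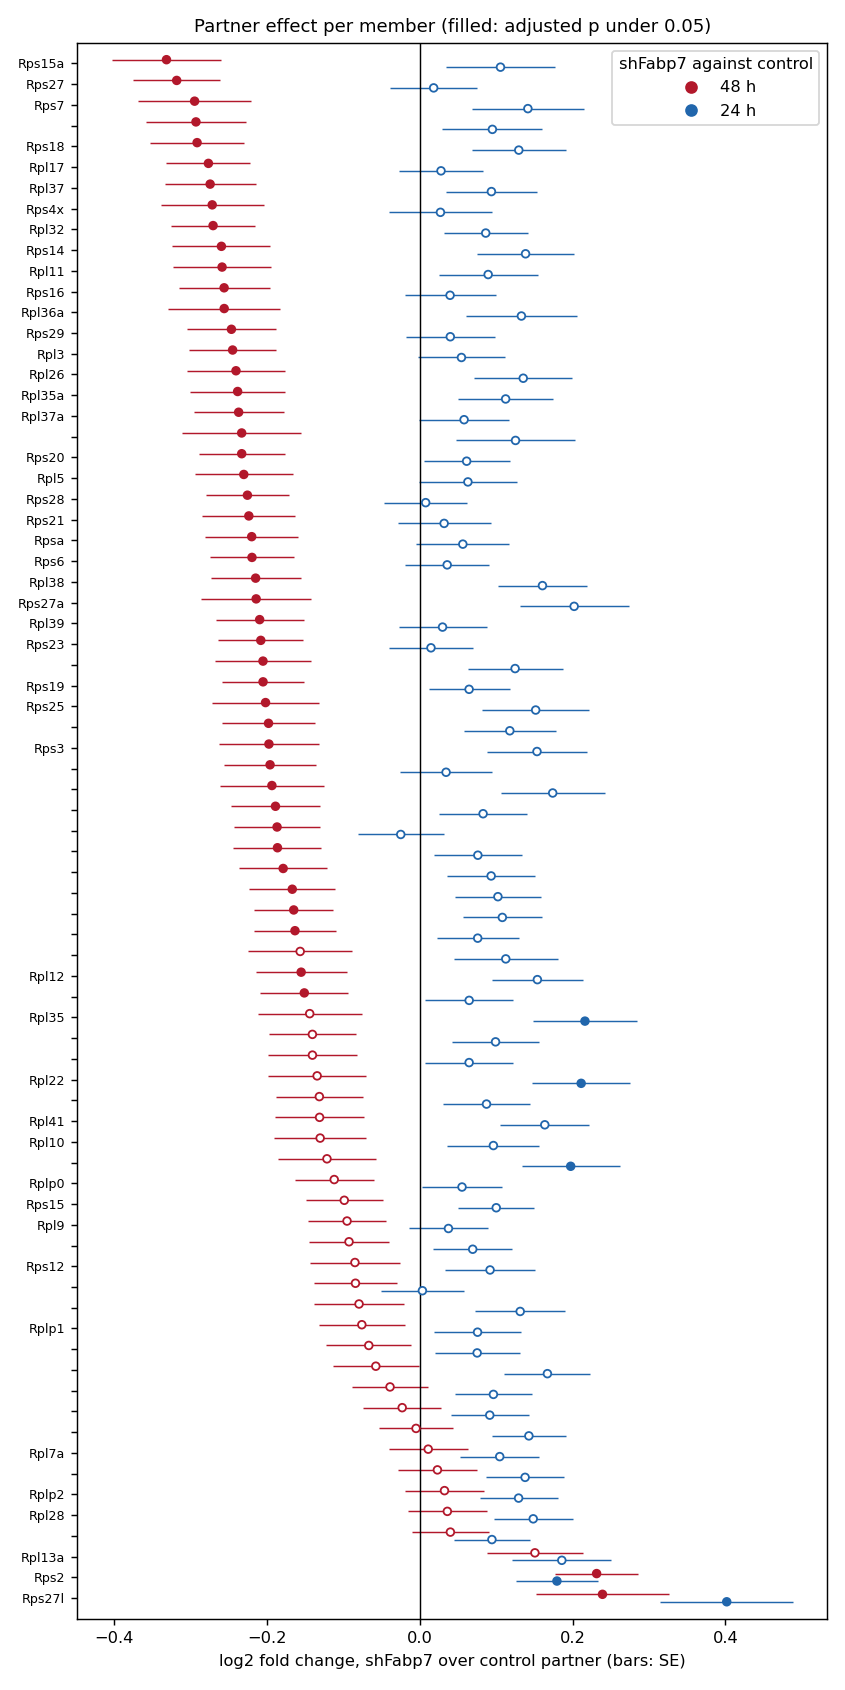
Log2 fold change, shFabp7 over control partner, at 48 h (red) and 24 h (blue) of the 75 members whose mean reached 10 CPM (labelled where named in the text), with standard errors derived from the F statistic of the edgeR test. Filled points passed the adjusted p threshold of 0.05. Most 48 h points lie left of 0 and nearly all 24 h points right of it, and Rps2 and Rps27l lie right of 0 at both times.

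At 24 h, few members passed, and those that did were higher with the shFabp7 partner. In edgeR's test 5 of 80 members rose and 0 fell, against 6.22% of all tested genes higher, 4.65% lower and 10.9% in either direction. The 5 rises are 6.25% of members, close to the share of all genes called higher. That 0 fell held also at an unadjusted p under 0.05, in DESeq2 and at each other setting tried. The median log2 fold change was 0.10, against -0.0041 for all tested genes, and it was positive in 77 of 80 members. In 14 of the 80 members the libraries of the 2 partners did not overlap, a smaller share than the 27.5% of all genes. The count of rises ran from 1 without shFabp7 replicate 2 at 24 h to 32 without control replicate 2 at 24 h, and was 6 without both control libraries with low family shares, where the median was 0.03. Of all genes, 5.02, 9.68 and 6.83% were called higher in these fits. With RLE scaling 16 members rose and in DESeq2 23, while 1 rose with upper-quartile scaling or library totals; higher genes made up 71.9, 74.7, 42.1 and 33.2% of all calls in these fits, against 57.2% with TMM. Members called higher came to 29.5% in DESeq2 (15.4% of all genes), 20% with RLE scaling (9.33%) and 40% without control replicate 2 at 24 h (9.68%). With upper-quartile scaling 1 of 80 was called higher (4.44% of all genes), so the share called depended on these choices. With TMM, RLE, upper-quartile scaling, library totals and DESeq2, the median of members was 0.10 above that of all tested genes. A change of scaling shifts every gene about alike, so this sameness is no sign of stability. The median of members lay 0.16 above that of all tested genes without control replicate 2 at 24 h. It lay 0.03 above without control replicate 3 at 24 h.

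Rps27l, a paralog of Rps27 that p53 induces in mouse and human cells, was the member called at 24 h under every setting and without any library. It had 95.7, 119 and 101 CPM at 24 h with the shFabp7 partner, against 84.1, 86.3 and 68.5 CPM with the control partner. All shFabp7 libraries were above all control libraries (0.40 ± 0.09, adjusted p = 0.00693). At 48 h it had 88.4, 94.7 and 86.9 CPM with the shFabp7 partner, against 69.1, 79.7 and 79.8 CPM with the control partner, again without overlap (0.24 ± 0.09, adjusted p = 0.044). This 48 h call was weak, and it ended without 9 of the 12 libraries in turn (for example adjusted p = 0.24 without control replicate 1 at 48 h) and under upper-quartile scaling and library totals (0.198 and 0.218). Rps27 and Rps27l thus had log2 fold changes of opposite sign at 48 h, -0.32 and 0.24.

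The other rises at 24 h were close to the threshold. Rpl22 had 465, 531 and 497 CPM at 24 h with the shFabp7 partner, against 447, 463 and 378 CPM with the control partner, with no overlap (0.21 ± 0.06, adjusted p = 0.0322). Its call ended without shFabp7 replicate 2 or control replicate 3 at 24 h (adjusted p = 0.11 and 0.131). Rpl35 had 843, 968 and 897 CPM with the shFabp7 partner, against 811, 842 and 678 CPM with the control partner (0.22 ± 0.07, adjusted p = 0.0395). The groups nearly touched, at shFabp7 replicate 1 and control replicate 2, and 5 libraries ended the call in turn, with adjusted p = 0.0507 and 0.0525 without shFabp7 replicates 1 and 2 at 48 h, 0.126 and 0.0513 without shFabp7 replicates 2 and 3 at 24 h and 0.141 without control replicate 3 at 24 h. Rps2 had 1865, 1888 and 1850 CPM with the shFabp7 partner, against 1561, 1745 and 1642 CPM with the control partner, without overlap (0.18 ± 0.05, adjusted p = 0.0282). The call of Rps2 ended without shFabp7 replicates 1 or 2 or control replicate 1 at 24 h (adjusted p = 0.0519, 0.0584 and 0.125).

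The partner effect differed between the times in 36 members, all more negative at 48 h than at 24 h. The test was the interaction in the same edgeR fit (the log2 partner effect at 48 h minus that at 24 h), which called 0 members more positive (0 also at an unadjusted p under 0.05 and in DESeq2). It called 1.17% of all tested genes more negative, 4.43% more positive and 5.6% in either direction. The median difference was -0.27 for members and 0.04 for all tested genes, and 76 of 80 members had a negative value. The count ran from 11 without control replicate 2 or 3 at 48 h to 57 without control replicate 1 at 48 h or control replicate 2 at 24 h. It was 12, 14 and 21 without shFabp7 replicates 3, 1 and 2 at 48 h and 19 without shFabp7 replicate 2 at 24 h. Without both control libraries with low shares it was 54. The shares of all genes called more negative were 0.605 and 0.536% in the fits with 11, and 2.01 and 1.46% in those with 57. They were 0.588, 0.564, 0.667 and 0.779% in the fits with 12, 14, 21 and 19, and 1.86% in the fit with 54. The call held in every one of these fits for 9 members, among them Rps14, Rps15a, Rps18, Rps27, Rpl26, Rpl32, Rpl37 and Rpl38.

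Rps15a had the largest difference between the times. Its 24 h libraries had 855, 999 and 924 CPM with the shFabp7 partner, against 904, 920 and 758 CPM with the control partner. These overlapped (0.11 ± 0.07, adjusted p = 0.389), and the difference from the 48 h effect was -0.44 ± 0.10 (adjusted p = 0.0119). Rps18 had 1432, 1609 and 1507 CPM at 24 h with the shFabp7 partner, against 1455, 1472 and 1230 CPM with the control partner, with overlap, and a difference of -0.42 ± 0.09 (adjusted p = 0.00341). Rps14 differed by -0.40 ± 0.09 (adjusted p = 0.00817), and Rpl38 by -0.38 ± 0.08 (adjusted p = 0.00609). Rps7 and Rps27a, which is a fusion of ubiquitin with a small subunit protein, differed by -0.44 ± 0.10 and -0.42 ± 0.10 (adjusted p = 0.0144 and 0.0152). Leaving out control replicate 3 of 48 h ended both calls (adjusted p = 0.0536 and 0.0541).

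Rps2 and Rps27l did not pass the interaction test. The difference was 0.05 ± 0.08 for Rps2 (adjusted p = 0.783) and -0.16 ± 0.12 for Rps27l (adjusted p = 0.534). Both had positive log2 fold changes at both times, 0.23 and 0.18 for Rps2 and 0.24 and 0.40 for Rps27l (48 h and 24 h).

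Over time with the shFabp7 partner, nearly the whole family fell. In edgeR's test, 73 of 80 members fell and 1 rose at 48 h against 24 h, in a comparison that called 30.2% of all tested genes lower, 35.9% higher and 66.1% in either direction. The median was -0.42, against 0.06 for all tested genes and -0.19 for the 2440 other genes of at least 100 CPM, of which 56.4% were called lower. Whichever library was left out, 71 of the falls held. The fall was not particular to the family. Of 30 ribosome assembly factors 30 fell (median -0.95). Of 77 mitochondrial ribosomal proteins 62 fell and 2 rose (median -0.37), and of 53 Eif translation factors 40 fell and 5 rose (median -0.50). Rps25 had 664, 678 and 661 CPM at 48 h, against 1045, 1197 and 1119 CPM at 24 h, with a wide gap between the times (-0.75 ± 0.07, adjusted p = 4.97e-10). Rps27 and Rpl38 fell by 0.73 ± 0.06 and 0.72 ± 0.06 (adjusted p = 2.54e-13 and 1.03e-12), and Rps15a and Rps7 by 0.67 ± 0.07 and 0.65 ± 0.07 (adjusted p = 1.16e-08 and 3.22e-08). Rps10 had the largest fold change but a very low level, with 3.56, 4.75 and 4.1 CPM at 48 h, against 8.72, 8.99 and 9.98 CPM at 24 h (-1.16 ± 0.13, adjusted p = 2.45e-09). The rise was in Rps4l, a paralog of the X-linked Rps4x, at 0.831, 0.651 and 0.721 CPM at 48 h, against 0.449, 0.235 and 0.3 CPM at 24 h (1.16 ± 0.43, adjusted p = 0.0173). This call ended without shFabp7 replicate 1 at 48 h or shFabp7 replicates 2 or 3 at 24 h, where 0 members rose.

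Over time with the control partner, the direction for the family depended on how libraries were scaled. With TMM scaling, 47 of 80 members fell and 3 rose in edgeR's test at 48 h against 24 h, while 32% of all tested genes were called lower, 35.8% higher and 67.7% in either direction. The median was -0.16, against 0.04 for all tested genes. The 2440 other genes of at least 100 CPM had a lower median than the members, -0.27, and 64.1% of them were called lower, against 58.8% of members. Medians were lower still for 30 ribosome assembly factors (-1.19, 30 fell), 77 mitochondrial ribosomal proteins (-0.46, 66 fell and 2 rose) and 53 Eif translation factors (-0.57, 41 fell and 6 rose). Scaled by library totals alone, 10 members fell, 13 rose and the median was 0.03, while the median of all tested genes moved to 0.23. Members were 0.20 below the median of all genes under both scalings (-0.205 with TMM and -0.204 with totals). Totals left 63 falls with the shFabp7 partner, with members 0.48 below the median of all genes (-0.481 with TMM and -0.482 with totals). These gaps could hardly differ between the scalings, since a change of scaling shifts every gene about alike. Under TMM, higher genes made up 54.3% of all calls over time for the shFabp7 partner and 52.8% for the control partner. Under library totals these were 66.4 and 67.2%. Library totals called 22.3% of all genes lower and 45.7% higher with the control partner, and 22.4% lower and 44.2% higher with the shFabp7 partner. The count of falls with the control partner was 27 without control replicate 2 at 24 h and 58 without control replicate 3 at 24 h. In these fits 28.6 and 29.2% of all genes were called lower.

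A core of 10 members fell with the control partner under every setting, among them Rps2, Rps10, Rps15, Rps25, Rps27, Rpl7a, Rpl9, Rpl12 and Rpl38. Rps2 had 1319, 1241 and 1172 CPM at 48 h, against 1561, 1745 and 1642 CPM at 24 h, with no overlap (-0.41 ± 0.05, adjusted p = 4.68e-08). Rps27 had 623, 678 and 708 CPM at 48 h, against 902, 928 and 816 CPM at 24 h (-0.40 ± 0.06, adjusted p = 1.88e-07). Rps10 fell by 0.85 ± 0.13, Rps25 by 0.39 ± 0.07, Rpl38 by 0.35 ± 0.06 and Rps15 by 0.34 ± 0.05 (adjusted p = 9.42e-07, 1.86e-05, 3.51e-06 and 3.1e-07). Rpl39 was the member that rose under every setting, with 411, 453 and 447 CPM at 48 h, against 380, 401 and 342 CPM at 24 h, without overlap (0.22 ± 0.06, adjusted p = 0.000889). With the shFabp7 partner Rpl39 had 379, 388 and 366 CPM at 48 h, against 355, 401 and 390 CPM at 24 h, and these overlapped (-0.01 ± 0.06, adjusted p = 0.835). Rpl28, a large subunit protein, and Rps19, known in humans for mutations in Diamond-Blackfan anaemia, were the other 2 called higher with the control partner, by 0.12 ± 0.05 and 0.13 ± 0.05 (adjusted p = 0.0471 and 0.0309), with overlap.

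Levels of the members spanned more than 3 orders of magnitude per length of transcript. The highest mean levels were those of Rplp1 with 3436 CPM per kb, Rpl41 with 2814, Rps12 with 2770 and Rplp2 with 2571. The lowest of the tested members were Rps4l with 0.682 CPM per kb, Rpl39l, a paralog of Rpl39 known from the testis, with 0.823, Rpl6l with 3.90 and Rpl24 with 5.21. Rpl24 is a core subunit protein, as are Rps10 with 12.9 and Rpl13a with 35.5 CPM per kb, and whether reads shared with copies elsewhere were dropped for these genes was not tested. Rpl39l had 0.333, 0.424 and 0.832 CPM at 48 h with the shFabp7 partner, against 0.164, 0.463 and 0.428 CPM with the control partner, which overlapped (0.56 ± 0.44, adjusted p = 0.357). Rpl10l, which stands in for the X-linked Rpl10 in mouse spermatogenesis, was at 0 counts, and Rpl3l, the heart and muscle form of Rpl3, had 16 counts over 12 libraries.

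**Figure D4:**
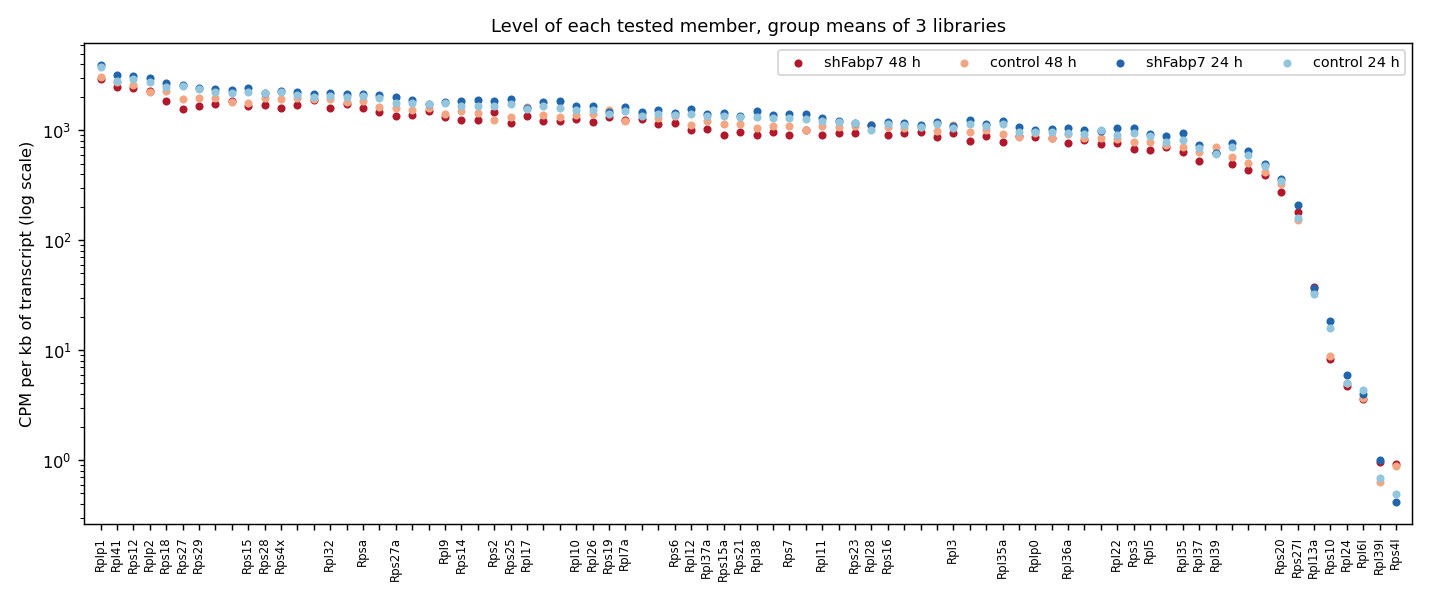
Mean level of each of the 80 tested members in CPM per kb of transcript on a log scale, ordered by the mean over all libraries and labelled where named in the text, with 1 point per group (mean of 3 libraries). Rplp1, at 3436, leads, and the members to the right, down to Rps4l at 0.682, include Rpl24, Rps10 and Rpl13a.

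Ribosomal proteins and paralogs outside the symbol rule were split. Fau, which encodes a small subunit protein fused to a ubiquitin-like protein, had 604, 628 and 616 CPM at 48 h with the shFabp7 partner, against 745, 742 and 712 CPM with the control partner. It was lower without overlap (-0.25 ± 0.05, adjusted p = 0.000181). Rack1, the scaffold on the small subunit head, fell by 0.14 ± 0.05 (adjusted p = 0.045), and 5 of the 6 libraries at 48 h ended this call when left out: shFabp7 replicates 1, 2 and 3 (adjusted p = 0.148, 0.0773 and 0.127) and control replicates 2 and 3 (0.149 and 0.155). Of 6 paralogs outside the rule, Rpl7l1, which acts in assembly, rose by 0.42 ± 0.06 (adjusted p = 3.44e-07) and Rpl22l1, the paralog of Rpl22, fell by 0.28 ± 0.08 (adjusted p = 0.0131). The call of Rpl22l1 ended without shFabp7 replicate 3, control replicate 2 or control replicate 3 at 48 h (adjusted p = 0.0581, 0.0687 and 0.0744).

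The genes that build ribosomes went the other way from the ribosomal proteins at 48 h. Of 30 assembly factors, 28 rose with the shFabp7 partner and none fell, with a median of 0.48, and 27 to 29 rose under each scaling, in DESeq2 and without any library. Nolc1, a nucleolar partner of the snoRNA particles, had 315, 320 and 320 CPM at 48 h with the shFabp7 partner, against 209, 190 and 173 CPM with the control partner, far apart (0.74 ± 0.06, adjusted p = 3.13e-11). Rrp12, an export factor of the small subunit precursor, and Bop1, a large subunit assembly factor, rose by 0.73 ± 0.06 and 0.70 ± 0.06 (adjusted p = 1.02e-10 and 1.4e-10). At 24 h, 22 of the 30 rose and none fell, with a median of 0.21, led by Rrp9 at 0.43 ± 0.06 (adjusted p = 3.11e-05). That count was 15 to 30 across the scalings, DESeq2 and the omission of single libraries. The assembly list rose and the member list fell in the same fit, and the difference between the lists was not tested. Where none of a companion list fell or passed, here and below, none did in that direction at an unadjusted p under 0.05 or in DESeq2. Beside each list, 19.9% of all tested genes were called higher at 48 h and 6.22% at 24 h. Among the 2440 other genes of at least 100 CPM, these shares were 47.6 and 16.1%.

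Chaperones and importers dedicated to ribosomal proteins also rose. Of 12, 10 rose and none fell at 48 h, with a median of 0.31. Grwd1, the chaperone of Rpl3, had 32.2, 30.4 and 33.1 CPM at 48 h with the shFabp7 partner, against 17.3, 15.4 and 13.7 CPM with the control partner, the largest gap of the list (1.05 ± 0.07, adjusted p = 2.9e-12). Its client Rpl3 had 1271, 1281 and 1259 CPM with the shFabp7 partner, against 1399, 1546 and 1572 CPM with the control partner (-0.24 ± 0.06, adjusted p = 0.00097). Rrs1, which brings in the 5S rRNA particle, rose by 0.64 ± 0.06 (adjusted p = 2.27e-09) and Heatr3, which imports Rpl5, by 0.54 ± 0.06 (adjusted p = 1.47e-08). At 24 h 4 of the 12 rose (4 to 9 across the scalings, DESeq2 and the omission of single libraries), among them Grwd1 by 0.42 ± 0.06 (adjusted p = 4.37e-05) and Rpf2, the partner of Rrs1, by 0.34 ± 0.08 (adjusted p = 0.00566).

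Other genes of translation had more rises than falls. So did the 2440 other genes of at least 100 CPM, with 47.6% called higher and 10.6% lower at 48 h. At 24 h these shares were 16.1 and 8.4%. Whether the lists differed from those genes was not tested. Among 77 tested mitochondrial ribosomal proteins, which serve the separate ribosome of mitochondria, 51 rose and 1 fell at 48 h, with a median of 0.22, and 30 rose and none fell at 24 h, with a median of 0.18. Under upper-quartile or library total scaling at least 31 and 13 of them still rose at the 2 times. Of 53 Eif translation factors, 35 rose and 1 fell at 48 h (median 0.25), and 15 rose and none fell at 24 h (median 0.13). The 24 h counts of rises ran from 19 to 44 for mitochondrial ribosomal proteins and from 11 to 29 for Eif factors without single libraries, and reached 43 and 31 among the scalings and DESeq2.

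**Figure D5:**
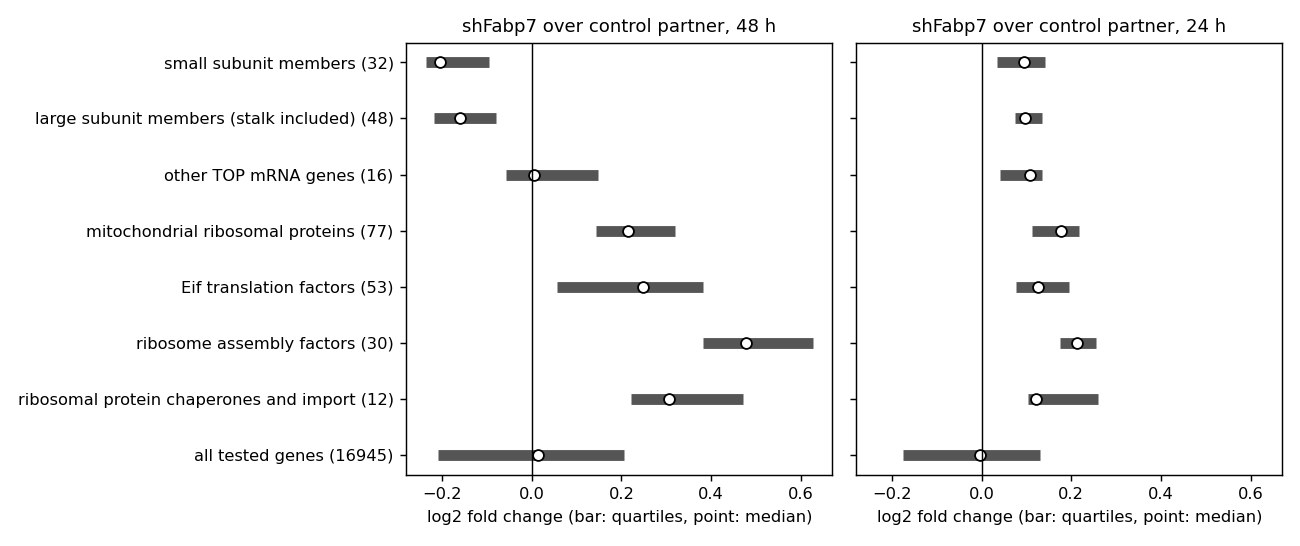
Log2 fold change, shFabp7 over control partner, at 48 h (left) and 24 h (right) for members, the listed companion genes and all tested genes, with the median as a point and the quartiles as a bar. At 48 h the members lie left of 0 with a median of -0.17 and the assembly factors right of it with a median of 0.48.

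Genes with a TOP mRNA that encode no ribosomal protein had no common direction at 48 h. Of 16, 5 rose, 1 fell and the median was 0.01. Vim, the intermediate filament gene, had 285, 296 and 290 CPM at 48 h with the shFabp7 partner, against 209, 197 and 199 CPM with the control partner (0.53 ± 0.05, adjusted p = 3.27e-09). Eef1d, a subunit of the elongation factor exchange complex, and Nap1l1, a histone chaperone, rose by 0.27 ± 0.05 and 0.24 ± 0.05 (adjusted p = 8.14e-05 and 0.000491). The gene that fell was Tpt1, named after its value was seen, with 1825, 1848 and 1816 CPM with the shFabp7 partner, against 2011, 2186 and 2275 CPM with the control partner (-0.24 ± 0.06, adjusted p = 0.00116). At 24 h 2 of the 16 rose (0 to 8 across the same fits), Eef1d by 0.19 ± 0.05 and Eif3f, an initiation factor subunit, by 0.18 ± 0.05 (adjusted p = 0.0139 and 0.0233). Leaving out control replicate 1 of 24 h ended both calls (adjusted p = 0.0561 and 0.103).

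Among 6 noncoding genes with a TOP start that host snoRNAs, 4 rose at 24 h, with Snhg12 at 0.28 ± 0.07, Snhg5 at 0.27 ± 0.07, Snhg1 at 0.21 ± 0.06 and Gas5 at 0.19 ± 0.06 (adjusted p = 0.00556, 0.0177, 0.0262 and 0.0307). Without single libraries, 1 to 4 rose, and the call of Snhg12 held in each fit. At 48 h none of the 6 passed, and the gene with the smallest p, Gas5, had 0.11 ± 0.06 (adjusted p = 0.142). The difference between the times passed in 0 of the 6 in edgeR and in DESeq2 (2 were more negative at 48 h at an unadjusted p under 0.05).

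Among 16 genes of TOP and mTORC1 control, 9 rose and 1 fell at 48 h, with a median of 0.19. Of the 2440 other genes of at least 100 CPM, 47.6% were called higher, with a median of 0.13, and the difference was not tested. Larp1, which binds the TOP start and holds such mRNAs back from translation, had 552, 575 and 580 CPM at 48 h with the shFabp7 partner, against 479, 392 and 392 CPM with the control partner, without overlap (0.44 ± 0.06, adjusted p = 1.08e-06). Larp4, which binds poly(A) tails, and Larp1b, a paralog of Larp1, rose by 0.35 ± 0.05 and 0.34 ± 0.06 (adjusted p = 5.36e-06 and 8.32e-05). At 24 h Larp1 rose by 0.21 ± 0.06 (adjusted p = 0.0233) and Mlst8, a subunit of the mTOR complexes, by 0.26 ± 0.07 (adjusted p = 0.0143). These 24 h calls ended for Larp1 without shFabp7 replicate 1 or control replicate 1 at 24 h (adjusted p = 0.0622 and 0.086) and for Mlst8 without shFabp7 replicate 3 at 24 h (adjusted p = 0.0523).

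Myc, which drives ribosome production, had 456, 469 and 482 CPM at 48 h with the shFabp7 partner, against 398, 343 and 330 CPM with the control partner. It was higher without overlap at 48 h (0.39 ± 0.06, adjusted p = 1.88e-06) and at 24 h (0.33 ± 0.06, adjusted p = 0.000359). Mxd4, a MAX partner that opposes MYC, fell by 0.48 ± 0.06 at 48 h (adjusted p = 1.99e-07), and Mlx, a further partner of this network, rose by 0.20 ± 0.07 (adjusted p = 0.00627), though not under upper-quartile or library total scaling (adjusted p = 0.121 and 0.114). Of the 9 listed genes of this network, 2 rose and 1 fell at 48 h.

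Genes of the response to stalled or missing ribosomes were mostly higher. Of 13 genes of ribosome rescue and turnover, 9 rose and none fell at 48 h, with a median of 0.33. Of the 2440 other genes of at least 100 CPM, 47.6% were called higher at 48 h. Whether this list or the p53 arm differed from those genes was not tested. Map3k20, the kinase that senses collided ribosomes, had 28.4, 27.6 and 27.3 CPM at 48 h with the shFabp7 partner, against 14.9, 15.7 and 15 CPM with the control partner (0.87 ± 0.09, adjusted p = 7.61e-09). G3bp1, a stress granule protein, and Ltn1, the ligase that marks stalled chains, rose by 0.38 ± 0.05 and 0.35 ± 0.05 (adjusted p = 3.48e-07 and 1.1e-06), and Usp10, a deubiquitinase of small subunit proteins, rose at 24 h by 0.23 ± 0.06 (adjusted p = 0.00718). In the p53 arm, 5 of 7 rose and 1 fell at 48 h, among them Trp53 by 0.40 ± 0.06, Cdkn1a, the cell cycle inhibitor, by 0.45 ± 0.08 and Mdm2, the p53 regulator, by 0.23 ± 0.05 (adjusted p = 1.68e-06, 0.000137 and 0.000701). At 24 h Cdkn1a rose by 0.47 ± 0.08 and Ccng1, a p53 target, by 0.33 ± 0.08 (adjusted p = 0.00121 and 0.00771).

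Markers of other cells moved with the partner in places. At 48 h, 2 of 5 tested neutrophil markers and 1 of 5 monocyte markers fell with the shFabp7 partner, and 0 of 9 B cell markers passed edgeR's test (1 at an unadjusted p under 0.05, 0 in DESeq2). The summed neutrophil level was 3.28 to 4.68 CPM with the shFabp7 partner, against 4.81 to 9.78 CPM with the control partner, and Retnlg, a neutrophil marker, was at 0 counts in all libraries. Markers of epithelial or other adherent cells, of which 2 of 6 fell, summed to 71.8 to 78.4 CPM with the shFabp7 partner, against 86 to 92 CPM with the control partner, most of it Pecam1 (mean 83.5 CPM over all libraries), which T cells also express. The summed T cell level was 3733 to 3853 CPM with the shFabp7 partner, against 3743 to 3768 CPM with the control partner, and overlapped, with 2 of 15 markers higher and 5 lower. All 6 tested NK cell markers had negative log2 fold changes at 48 h (median -0.28, 1 called lower), and their summed level was 145 to 148 CPM with the shFabp7 partner, against 150.1 to 166 CPM with the control partner, without overlap. At 24 h, monocyte markers summed to 11.4 to 12.8 CPM with the shFabp7 partner, against 13.8 to 15.5 CPM with the control partner, and adherent cell markers to 90.6 to 96.9 CPM, against 107 to 122 CPM, neither with overlap. The nuclear noncoding RNA Malat1 was at 1156 to 1364 CPM at 48 h with the shFabp7 partner, against 1781 to 1914 CPM with the control partner. At 24 h Malat1 was at 1353 to 1430 CPM with the shFabp7 partner, against 1655 to 2182.2 CPM with the control partner, so the groups did not overlap at either time. Mitochondrially encoded genes held 1.03 ± 0.0529% of counts with the shFabp7 partner and 1.02 ± 0.145% with the control partner at 48 h (SD, n = 3 each). The part of these markers and of Malat1 in the results on ribosomal proteins was not tested.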

How the data were processed

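RNA sequencing of mouse spleen T cells gave 12 libraries in 4 groups of 3. The authors deposited 1 table of unnormalized counts by gene symbol. The submitters' processing notes name build GRCm39 and the tools HTSeq 0.6.1p1, TopHat2 2.0.13 and CASAVA 1.8.2; the strand mode, the annotation release and the handling of reads with several positions are not given in the sources used here. Because of this, reads of overlapping genes and of near-identical copies may be split or missing.

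Genes with low counts were dropped by filterByExpr (grouped; at least 10 counts, 15 in total), and libraries were scaled by TMM and tested with edgeR 4.0.16 quasi-likelihood in R 4.3.3, in 1 fit of all 12 libraries with 1 coefficient per group. P-values were adjusted by Benjamini-Hochberg over all 16945 genes, with a threshold of 0.05. Levels are TMM-scaled CPM, fold changes are log2 ± SE and other errors are SD. The edgeR test gives no SE, so it was taken as the absolute log2 fold change over the square root of the F statistic. The 5 comparisons were the partner effect at each time, their difference and 48 h against 24 h with each partner. Shares are percents of all counts, without TMM. Replicates differed beyond counting noise (chi-square per degree of freedom 4.34 to 14.2), and none was counted as a duplicate. Per kilobase levels use the shortest principal transcript of GENCODE M21 by symbol, and start windows come from RefSeq on GRCm38.p6; no coordinates of the authors' build were used.

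The members and all gene lists were chosen with earlier results of these data known. Named members are up to 6 per direction and comparison with the largest fold change among those called (with no overlap of the compared libraries, except for the difference), the stalk, 5S and paralog members, a further 9 by role, the 4 highest and 4 lowest per kilobase, and all that failed the filter; up to 3 called genes per companion list were named by adjusted p. Some genes that meet these rules are not reported here. Alternatives were DESeq2 1.42.0, RLE, upper-quartile and library total scaling, scaling without member rows, no filter, a stricter filter (1 CPM in 3 libraries and 100 counts), the compared groups alone, a replicate block and each library left out. Leaving out both control libraries with low family shares was chosen after seeing the data. The tests were checked on simulated data in which genes varied independently. That check does not cover shifts shared by the members of a library, so it cannot vouch for the counts of members.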

Additional observations from a re-analysis of the deposited data

Results flagged for a closer look

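The partner effect (shFabp7 over control) differed between 48 h and 24 h by the interaction test of the same edgeR fit for 36 of the 80 tested ribosomal proteins, and this difference of effects brought each of the following genes here. Among the small subunit members named, the log2 effect at 48 h minus that at 24 h was -0.44 for Rps15a and for Rps7, -0.42 for Rps18 and for Rps27a, -0.40 for Rps14, -0.35 for Rps25 and for Rps3, -0.34 for Rps27, -0.29 for Rps29 and -0.26 for Rps6. Among the large subunit members it was -0.39 for Rpl36a, -0.38 for Rpl38, -0.36 for Rpl35, -0.35 for Rpl22 and for Rpl11, -0.30 for Rpl17 and -0.29 for Rpl41.

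Of the ribosomal proteins and paralogs outside the symbol rule, Fau had -0.28, Rpl22l1 -0.43 and Rpl7l1 0.27. The named genes of ribosome assembly differed in the opposite direction, with 0.46 for Nolc1, 0.42 for Rrp12, 0.47 for Bop1 and 0.44 for Nop2. The same held for the chaperones and importers Grwd1 (0.63), Rrs1 (0.28) and Heatr3 (0.30), for the rescue genes Map3k20 (0.64) and Ltn1 (0.41), and for Larp4 (0.28) and Vim (0.56). Calls of single genes that ended when a library was left out or a setting changed include Rrs1, whose adjusted p of 0.049 was lost in 17 of 21 other fits, Rpl7l1 (12 of 21), Heatr3 and Rps6 (9 of 21 each) and Larp4 (8 of 21). Those of Nolc1, Bop1, Nop2, Rrp12, Grwd1, Vim and Ltn1 were kept in all 21.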

How the results depend on the processing

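In fits with another setting, rises at 48 h numbered 1 with upper-quartile scaling and with library totals (12.5 and 12.7% of all genes). Rises at 24 h numbered 23 in DESeq2, 16 with RLE, 1 with upper-quartile scaling, 1 with library totals, 3 when member rows were kept out of the scaling, 24 with no filter and 1 in a fit of the compared groups alone. Of all genes, 15.4, 9.33, 4.44, 3.56, 5.82, 5.27 and 6.05% were called higher in these fits, in that order. The members whose partner effect was more negative at 48 h numbered 56 with no filter, where 1.17% of all genes were called so. Over time with the shFabp7 partner, 4 rose with library totals and 0 with the stricter filter (44.2 and 39.1% of all genes). With the control partner, 1 rose in DESeq2, 1 with RLE, 1 when member rows were kept out of the scaling, 1 in the groups alone, 8 with upper-quartile scaling and 13 with library totals, while 22 fell with upper-quartile scaling and 10 with library totals. The shares of all genes called higher were 25.9, 34.8, 34.5, 35.4, 40.9 and 45.7% in that order. Those called lower were 26.5 and 22.3% in the last fits named. With library totals these log2 changes over time turned positive: Rpl39 with the shFabp7 partner (0.13), and with the control partner Rps14 (0.0244), Rplp0 (0.15), Rpl11 (0.0186), Rps6 (0.14), Rpl10 (0.0385), Rpl41 (0.15), Rps12 (0.0293) and Fau (0.17). That scaling moved the median of all genes to 0.21 and 0.23 in the 2 time comparisons.

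With each library left out in turn, counts of members ran from 29 to 57 lower and 1 to 2 higher at 48 h, from 1 to 32 higher at 24 h, from 11 to 57 for the difference of effects, from 71 to 74 lower and 0 to 1 higher over time with the shFabp7 partner, and from 27 to 58 lower and 2 to 4 higher with the control partner. The difference in family share ran from -1.51 to -1.10 percentage points at 48 h and from -0.0156 to 0.525 at 24 h. Over all tested genes, same-numbered libraries did not deviate together (correlations -0.067 to 0.010). Among the 80 tested members, replicate 2 was the highest of its group for 69 (shFabp7, 48 h), 61 (shFabp7, 24 h) and 72 (control, 24 h). With the control partner at 48 h it was the highest for 27. Such counts were not made over all tested genes. Whether the numbers pair the libraries is therefore not settled. The replicate block gave 45 lower and 2 higher at 48 h, 7 higher at 24 h and 39 for the difference. Rpl24, Rpl6l, Rpl39l and Rps4l had few counts, and their small changes could not be detected at this depth.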
